A study of Drosophila melanogaster with 20 samples.

Results

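The ecdysone receptor EcR was mapped in larval salivary glands of the fruit fly by CUT&RUN, with 1 list of peaks from the supernatant and 1 from the pellet. The 2 lists held 2110 peaks of the 7703 in the 6 lists of the series, 1174 from the supernatant and 936 from the pellet. A peak was shared where it overlapped a peak of the other gland list by at least 1 bp, and otherwise counted as supernatant only or pellet only. Peaks on chromosome M, the mitochondrial genome, numbered 4 in the supernatant list and 8 in the pellet list and are described last. Of the other 1170 supernatant peaks, 687 were shared and 483 were supernatant only, and of the other 928 pellet peaks, 671 were shared and 257 were pellet only. Where classes are set beside each other, a shared place is counted once, by its supernatant peak.

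EcR is a nuclear receptor. With its partner, the RXR homologue Ultraspiracle, it binds DNA and switches target genes on or off according to the level of the moulting hormone ecdysone. In the salivary gland the hormone pulses at the end of larval life open the early puffs of the polytene chromosomes, set off the secretion of glue and later the death of the gland. In CUT&RUN an antibody holds a nuclease at the bound protein, so that small cut fragments diffuse out of the nuclei into the supernatant while the remaining chromatin stays in the pellet.

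The gland groups were the supernatant and the pellet fraction of female wandering larvae, 6 hours before puparium formation, with at least 50 glands dissected and 2 anti-Flag libraries per fraction. All of them carried w; EcR-GFSTF / Df(2R)BSC313, that is, EcR with a tag that holds a Flag epitope over a deletion on the other homologue, and the wing and leg libraries used for comparison had the same genotype, sex and stage. The 2 gland and 6 wild-type wing libraries made with IgG were not analysed here, and names of the single peaks point to merged wing IgG as the control of every list, the gland's included. Each list came from merged replicates, so no value below has an error between replicates, depth per library is unknown, and nothing here tests a difference between fractions over samples. Intervals are exact (Clopper-Pearson) 95% intervals that cover counting error over peaks alone. Coordinates are on dm6. The gland lists held 0 peaks on chromosome Y, whereas the wing supernatant and pellet lists held 16 and 59 and those of the leg 6 and 15, although all larvae are labelled female; the source of these peaks was not tested, and none can overlap a gland peak. Binding does not show expression, so the tissue label could not be checked by its markers beyond where peaks lie. None of the 12 salivary glue genes listed had a gland peak within 2000 bp, and of 16 genes of gland identity and secretion 5 had one. Over all coding genes the share with a gland peak within 2000 bp was 8.81%.

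Within each gland list, most EcR peaks overlapped a peak of the other fraction. Of the supernatant peaks 58.7% were shared (95% interval 55.8 to 61.6), and of the pellet peaks 72.3% (69.3 to 75.2). The shared peaks were the strong ones in either list. By the authors' fold enrichment over background, which describes peaks within a list only, supernatant-only peaks had a median of 5.06 and a range of 3.29 to 19.1, while shared peaks of the same list had a median of 9.05 and a range of 3.11 to 90.2. In the pellet list the pellet-only peaks had a median of 4.94 and a range of 1.48 to 17.4, and the shared peaks a median of 7.71 and a range of 2.01 to 348. The 72 nuclear supernatant peaks with a fold enrichment of 19.6 or more were all shared, as were the 64 pellet peaks at or above 17.5. By quartile of fold enrichment, weakest first, the shared percentage in the supernatant list was 22.9, 49.0, 67.1 and 95.9, and in the pellet list 40.1, 68.1, 83.2 and 97.8. Unshared peaks were also narrower, with median widths of 101 bp for supernatant only, against 193 bp for shared peaks of that list, and 104 bp for pellet only, against 174 bp for shared peaks of the pellet list. Strength and width come from the same calls that made the classes, so these values are a description with no test.

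**Figure D1:**
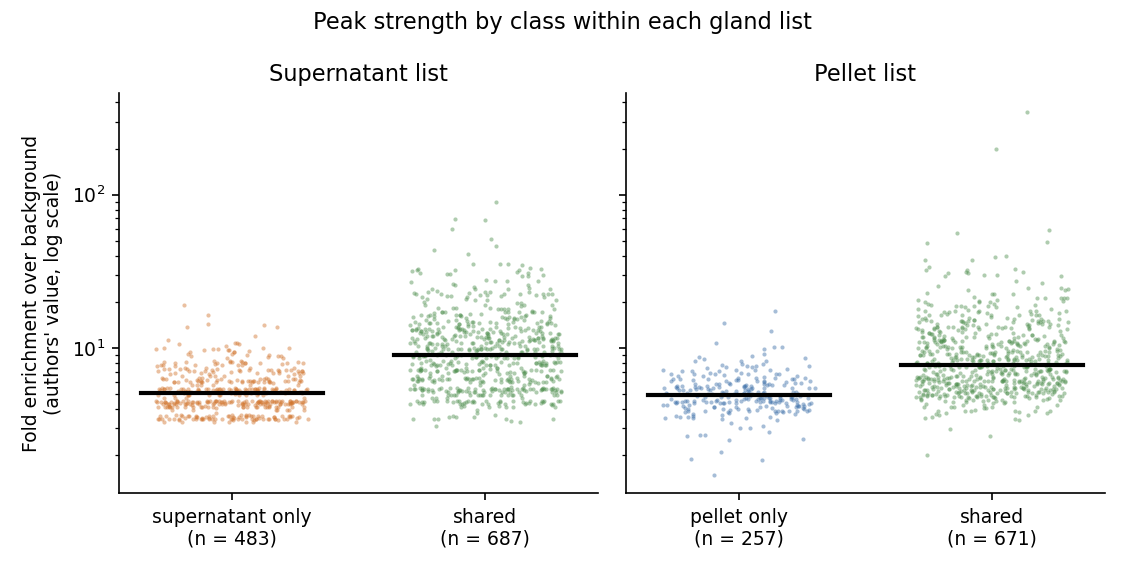
Fold enrichment over background of each nuclear gland peak (log axis, the authors' value), by class, in the supernatant list on the left and the pellet list on the right; points are peaks and lines are medians. Unshared peaks crowd at the low end, with medians of 5.06 (supernatant only) and 4.94 (pellet only), against 9.05 and 7.71 for the shared peaks of the supernatant and the pellet list.

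Where both fractions had a peak, their summits lay close together. Pairs were formed by overlap, so the widths of the peaks bound this distance, and the values are a description with no test. The 693 overlapping pairs had a median distance between summits of 24 bp, with quartiles of 10 and 49 bp. Summits were within 10 bp in 27.3% of pairs, within 50 bp in 76.2% and within 100 bp in 90.6%. The supernatant summit minus the pellet summit had a median of 0 bp. In 640 pairs 1 peak met 1 peak, and there the supernatant peak was wider in 368 pairs and the pellet peak in 264, with median widths of 193.5 bp in the supernatant and 169 bp in the pellet. Spearman's rho of the fold enrichments over the pairs was 0.61, a description over peaks of 2 lists whose names point to the same control. Summits stood more than 300 bp apart in 19 pairs, in 6 of which neither peak reached 500 bp in width.

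**Figure D2:**
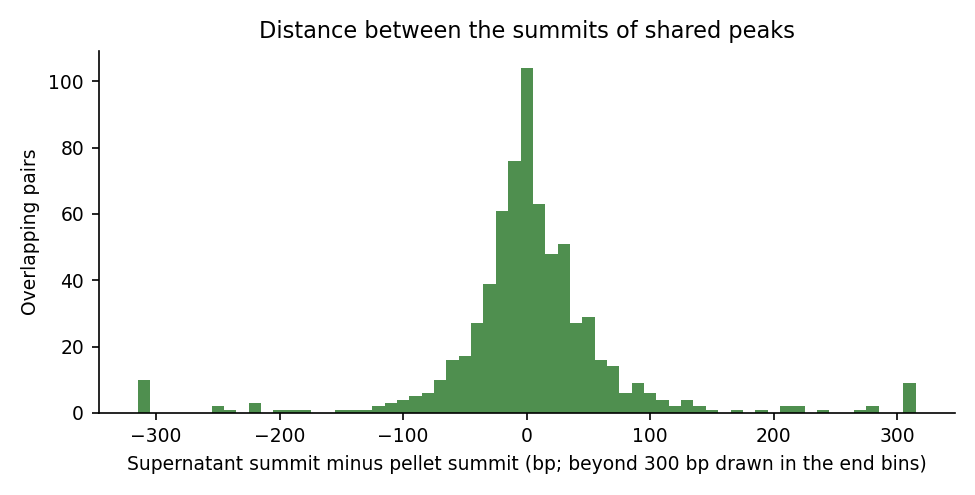
Supernatant summit position minus pellet summit position for the 693 overlapping pairs of gland peaks (x axis, bp; pairs beyond 300 bp are drawn in the end bins) and the number of pairs (y axis). The distances centre on 0 bp, and 90.6% of pairs lie within 100 bp. Pairs were formed by overlap, so peak width bounds the distance.

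The border between the classes was thin for some peaks. At Pdcd4, a tumour suppressor gene homologue that encodes a translation inhibitor, the supernatant peak (X, 13747322 to 13747415, fold 4.11) and the pellet peak (13747203 to 13747322, fold 8.05) touched by 1 bp and counted as shared. Overlaps of 7 bp at Phk-3 and 8 bp at Mur2B came next. The smallest gap from an unshared peak to any peak of the other list was 10 bp for supernatant-only and 6 bp for pellet-only peaks. Where the peaks of both lists were unshared, the nearest, at Cph, were 13 bp apart, peaks at Csk, which encodes a kinase that restrains Src, 18 bp, and peaks at Lsp1beta, a larval serum protein gene, 79 bp. Within 5000 bp of a peak of the other list lay 33.3% of supernatant-only and 33.5% of pellet-only peaks. The gap to the nearest peak of the other list had a median of 20723 bp for supernatant-only peaks and 17558 bp for pellet-only peaks. It was 500 bp or less for 49 supernatant-only peaks (10.1%) and 33 pellet-only peaks (12.8%).

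The 3 genes with the most gland peaks in their span, Eip75B, Hr4 and Eip74EF, are ecdysone genes, and at each of them most peaks were shared. Over 28 listed ecdysone receptor, puff and response genes, 19 had a summit in the span or within 2000 bp. The share over all coding genes was 8.81%. Spans differ in length, with 113744 bp at Eip75B, and the counts were not adjusted for it. Near the 19 listed genes lay 149 supernatant peaks, of which 109 were shared (73.2%, 65.3 to 80.1). Of 120 pellet peaks near them, 109 were shared (90.8%, 84.2 to 95.3). Over the whole lists the shared percentages were 58.7 and 72.3, and no test was made because the lists were chosen with these peaks known.

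Among the nuclear receptors, 8 of 10 genes had a peak, 5 with a supernatant-only peak, 3 with a pellet-only peak and 7 with a shared one. Over all coding genes these shares were 8.81%, 3.61%, 2.34% and 4.53%. Eip75B, the early puff gene of a haem-binding receptor, had 10 supernatant-only, 3 pellet-only and 33 shared peaks (3L, gene span 17950953 to 18064696). Its strongest shared peak (17971312 to 17971859) had a fold enrichment of 35.4 in the supernatant list. The pellet peaks that overlapped it, from 17971204 to 17971571 and from 17971666 to 17971867, had 13.6 and 6.13 within the pellet list. Its 9 supernatant-only peaks inside the span were weak to middling, with folds of 4.43 to 9.05. Hr4, a receptor gene induced early by the hormone, had 6 supernatant-only, 0 pellet-only and 12 shared peaks (X, 1941940 to 2007956). Its strongest supernatant peak had a fold of 51.3, and the pellet peak overlapping that one had 32.5. The highest fold at Hr4 in the pellet list was 37.8, at another shared peak (1947131 to 1947573). The gene of EcR itself had 3 supernatant-only, 0 pellet-only and 4 shared peaks (2R, 6087873 to 6169087), with a highest fold of 18.1 in the supernatant list and 9.34 in the pellet list. The other receptor genes varied. Eip78C had 0 supernatant-only, 3 pellet-only and 3 shared peaks, and Hr3, a delayed early gene that represses early ones, had 0, 1 and 7. All 5 peaks of Hr39 were shared, and Hr78 had 1 supernatant-only and 1 shared peak. Only a supernatant-only peak was found at ftz-f1, the competence factor of the prepupal stage, with a low fold of 4.54.

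Of 18 early puff and response genes, 11 had a peak, where 8.81% of all coding genes had one. Each of the 11 had a shared peak, 6 also had a supernatant-only peak and 4 a pellet-only peak. Eip74EF, which encodes an Ets transcription factor, had 4 supernatant-only, 1 pellet-only and 10 shared peaks (3L, 17558672 to 17619325), with the strongest shared peak at 46.0 in the supernatant list and 31.3 in the pellet list. The broad gene br, a family of zinc finger factors from 1 locus, had 3, 0 and 7 (X, 1575132 to 1664869). Its strongest peak, in a stretch that the span of the mucin gene Mur2B also covers, reached 41.2 in the supernatant list and 31.1 in the pellet list. The coactivator gene tai, whose product works with EcR, had 5 supernatant-only, 1 pellet-only and 6 shared peaks. The bZIP repressor gene vri had 3, 0 and 5. E23, an ABC transporter gene that dampens the ecdysone response, had 4 peaks, all shared. Peaks at Kr-h1, the zinc finger gene of the juvenile hormone response, were 2 supernatant only, 1 pellet only and 6 shared, and those at the juvenile hormone receptor gene gce were 0, 1 and 2.

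**Figure D3:**
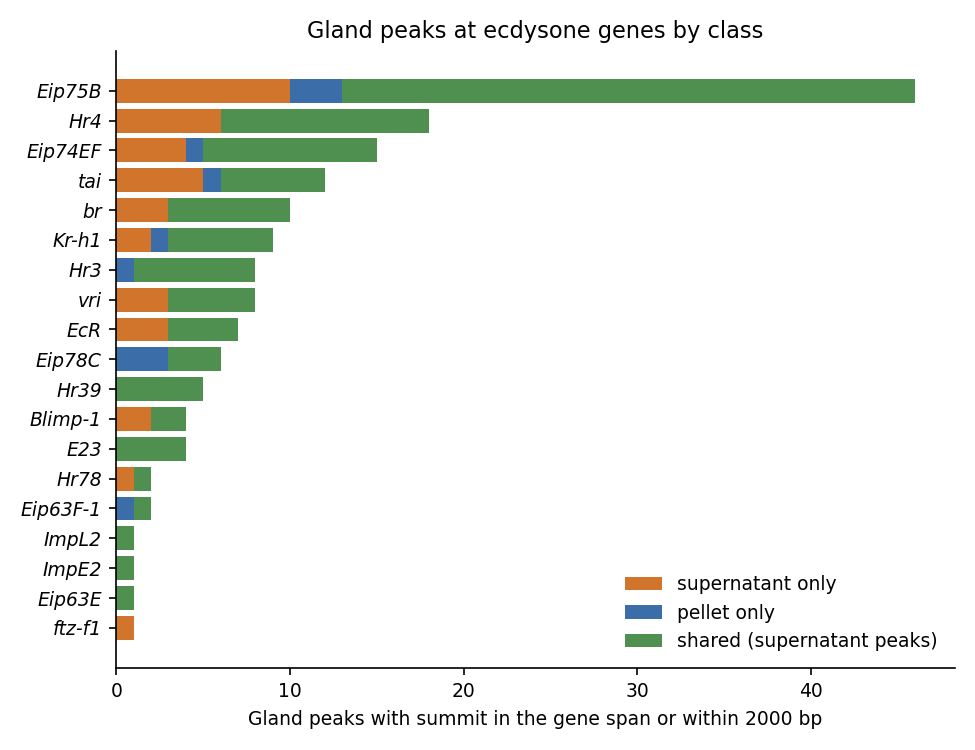
Number of gland peaks with a summit in the gene span or within 2000 bp (x axis) at the 19 ecdysone genes that had any, stacked as supernatant only, pellet only and shared (counted by the supernatant peak). Shared peaks make up most of the bar at Eip75B, with 33, and at Hr4, with 12, while Eip78C carries 3 pellet-only peaks and no supernatant-only peak.

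Of 13 genes of ecdysone synthesis, uptake and turnover 3 had a peak, where 8.81% of all coding genes had one within 2000 bp. The genes phtm and Oatp74D had 1 supernatant-only peak each, with folds of 8.04 and 9.47, and spok had a shared one. The gene phtm encodes a cytochrome P450 that makes the hormone, and Oatp74D its importer into cells. The peak at spok, another P450 gene of that path, was strong, at 29.5 in the supernatant list and 55.9 in the pellet list, and lies on 3R near the centromere.

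Outside the 2R cluster described below, not all of the strongest shared peaks lay at ecdysone genes. The highest nuclear fold there in the supernatant list, 59.3, lay 1419 bp from CG43389 (3L, 3246310 to 3246756). Shared peaks at beat-Ib (43.6) and 2161 bp from CG33687 (35.5) also stood among the 10 strongest, beside those at Hr4, Eip74EF, br and Eip75B. The strongest unshared peaks lay at few genes of the ecdysone response. The supernatant-only peak with the highest fold enrichment, 19.1 (X, 8608276 to 8608360), lay 2019 bp from Caf1-180, which encodes a subunit of the chromatin assembly factor. Next came a peak of 79 bp at CG12115 (X, 9190807 to 9190885) with a fold of 16.4, one at CG8468 (14.4) and one in a stretch shared by Cnx14D and para, the voltage-gated sodium channel gene (14.1). The peak in Glg1, 1157 bp from the receptor gene Hr78, had 13.6. Also among the 10 strongest were peaks at CG43707 (12.1), a place on 3L with no coding gene within 5000 bp (11.2), mub (10.9) and Sid (10.7). Of the peaks named here, those at Glg1 and CG43707 also overlapped peaks of at least 3 of the 4 wing and leg lists, and the other 7 overlapped none.

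The strongest pellet-only peak, with a fold enrichment of 17.4 (X, 21851537 to 21851680), had no coding gene within 5000 bp. At nAChRalpha3, a nicotinic acetylcholine receptor subunit gene, the pellet-only peak was 1513 bp wide (X, 8294116 to 8295628, fold 14.6) and overlapped peaks in all 4 wing and leg lists. RhoGAP18B followed with 12.9, then a place on X near the centromere with 10.9. The peak at ClpX, which encodes the unfoldase of a mitochondrial protease, had 10.2. The peak at bchs, a BEACH domain gene linked to autophagy, had 10.1. The 10 strongest also took in peaks at tara (9.87), at gpp, the gene of a histone H3 methyltransferase (9.17), at a place on 3R without a coding gene nearby (8.91) and at Lsp1beta (8.68). The tara gene had 0 supernatant-only, 5 pellet-only and 3 shared peaks in its span (3R, 16225651 to 16260329), more pellet-only peaks than any other coding gene. At atos the unshared peaks were of the other kind, with 5 supernatant-only, 0 pellet-only and 1 shared peak in its span.

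Coding gene spans, 13938 on the nuclear chromosomes, held a supernatant-only summit at 317 genes, a pellet-only summit at 180 and a shared summit at 378, and 715 genes held any (5.13%). All 3 classes met at 23 genes. A shared peak stood in the same span at 91 of the 317 genes (28.7%) and at 52 of the 180 (28.9%). With summits within 2000 bp counted too, 8.81% of coding genes had a gland peak, 3.61% a supernatant-only, 2.34% a pellet-only and 4.53% a shared one, and the gene lists were read beside these percentages. Of 22 cell death and autophagy genes 6 had a peak: Atg1 a supernatant-only one, Atg7 a pellet-only one, and Dark, Diap1, Atg5 and Atg13 shared ones. Dark encodes the Apaf-1 homologue of the apoptosome and Diap1 the caspase inhibitor. Among gland identity genes the secretory factor gene CrebA had 1 supernatant-only and 1 shared peak, fkh and hth had a shared peak each, and sens and the chaperone gene Hsc70-3 had a pellet-only peak each. No gene of 15 for the endocycle and cell cycle had a peak.

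Peaks also lay at some markers of other cell types. Of 10 fat body markers 7 had a gland peak, 4 with a supernatant-only, 2 with a pellet-only and 3 with a shared one, and several of these genes, such as Lsp2 and Fbp1, are ecdysone targets in the fat body. Peaks lay at 1 of 10 haemocyte markers (srp, which the fat body list also holds), 2 of 10 tracheal, 3 of 8 muscle and 1 of 10 neuron markers, where the percentage over all coding genes was 8.81. Whether DNA of other cells gave any of these peaks was not tested.

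The classes differed in how often they lay near the centromeres. Summits inside a coding gene span made up 77.8% of supernatant-only, 72.4% of pellet-only and 77.9% of shared peaks, and summits within 500 bp of either end of a span 16.6%, 17.1% and 16.4%. In these no pair of classes differed past the threshold (Fisher's exact test, two-sided, adjusted p 0.188 or more over 9 tests, which treat peaks as independent although neighbours are not). With both lists first cut to peaks with a −log10 q of 10 or more and the classes then formed anew, a peak whose partner was cut counted as unshared. In these classes 24.5% of 159 supernatant-only summits lay near a span end, against 13.8% of 298 shared ones (adjusted p = 0.0191). Near the centromeres or on chromosome 4 lay 4 supernatant-only peaks of 483 (0.828%), 19 pellet-only peaks of 257 (7.39%) and 20 shared peaks of 687 (2.91%). The adjusted p was 2.12e-05 for supernatant only against pellet only, 0.0366 for supernatant only against shared and 0.0222 for pellet only against shared.

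Single stretches carried this difference. Of the 19 pellet-only peaks 12 had their summits on X between 23212933 and 23472504, with folds of 1.48 to 10.9 and a median of 2.92, and all 12 overlapped peaks in the wing pellet and leg pellet lists. Without X near its centromere, 7 of 245 pellet-only peaks were left (2.86%), against 15 of 682 shared peaks, and none of the 3 differences passed (adjusted p from 0.163 to 0.870). Of the 20 shared peaks 14 belonged to 1 cluster on 2R. Without it, supernatant only differed from shared by -0.063 percentage points (adjusted p = 1), while the other differences still passed. Supernatant only against shared also lost its call under 4 other settings (adjusted p from 0.0965 to 0.257). Both sets of regions to leave out were chosen after the data were seen.

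The 2R cluster held the strongest nuclear peaks of both lists. Between 5049586 and 5056313 lay 14 supernatant peaks and 7 pellet peaks, every one shared. In the supernatant list, the peaks from 5056073 to 5056307, 5050513 to 5051240 and 5049591 to 5050424 had folds of 90.2, 69.7 and 68.4, and ranked below the large chromosome M peak alone. In the pellet list, the peaks from 5055997 to 5056313 and from 5049586 to 5051716 had folds of 348 and 199 and ranked first and second. The other 11 supernatant peaks were of 5.51 to 13.1, and the other 5 pellet peaks of 21.2 to 48.1. The nearest coding gene span, that of the troponin C gene TpnC41C, began 9015 bp or more away. Wing and leg lists had 7 to 12 peaks each in the same stretch. What part of these reads is bound EcR was not tested, and the gland IgG libraries were not analysed here.

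Shared peaks overlapped wing and leg peaks more often than unshared ones, and pellet-only peaks did so least often in the supernatant lists of the discs. Of supernatant-only peaks 28.6% overlapped a wing supernatant peak, against 14.8% of pellet-only and 41.3% of shared peaks. For the leg supernatant list these were 28.0%, 13.6% and 41.8%. Supernatant only and pellet only differed in both (Fisher's exact test, two-sided, adjusted p over 12 tests 2.32e-05 for wing and 9.61e-06 for leg). For the pellet lists they did not pass: 26.5% of supernatant-only against 21.4% of pellet-only peaks overlapped a wing pellet peak (adjusted p = 0.141), and 14.5% against 12.8% a leg pellet peak (adjusted p = 0.578). Shared peaks stood at 41.6% and 31.1% there. With sequence near centromeres and chromosomes 4 and Y left out, these last differences passed as well, at 26.5% of supernatant-only against 15.5% of pellet-only peaks for wing pellet (adjusted p = 0.00101) and 14.2% against 6.72% for leg pellet (adjusted p = 0.00298). Shared peaks overlapped each of the 4 lists more often than either unshared class, with adjusted p of at most 1.09e-05. They were also wider, with a median of 193 bp against 101 bp for supernatant-only and 104 bp for pellet-only peaks. The part of peak width in these differences was not tested. In the classes formed anew from peaks with a −log10 q of 10 or more, supernatant only against shared lost its call for the wing supernatant list (41.5% against 52.0%, adjusted p = 0.0519) and the leg supernatant list (44.7% against 53.4%, adjusted p = 0.0939).

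In the supernatant list this overlap was more frequent among stronger peaks of either class. Within quartile groups of the supernatant list by fold enrichment, weakest first, 31.0, 36.2 and 39.6% of supernatant-only peaks overlapped a peak of any wing or leg list, against 31.3, 37.1 and 43.4% of shared peaks, with overlapping intervals in each. In the strongest group 5 of 12 supernatant-only peaks did, against 60.1% of 281 shared peaks. In the pellet list the 3 weaker groups gave 29.5, 20.3 and 20.5% of pellet-only peaks, with no increase with strength, against 38.7, 38.6 and 44.0% of shared peaks. The intervals of the third of these did not overlap (9.30 to 36.5% for pellet only, 36.9 to 51.4% for shared). In the strongest group 2 of 5 pellet-only peaks overlapped a disc peak, against 59.9% of 227 shared peaks. These included the peak near the centromere of X with a fold of 10.9. Of the 19 pellet-only peaks near centromeres or on chromosome 4, 18 overlapped a wing pellet peak. Their median fold on X was 2.92 and their highest on 3L 4.17, where the weakest group ended at 5.05. Their part in these percentages was not tested. No wing or leg list had a peak at 65.4% of supernatant-only, 74.3% of pellet-only and 52.3% of shared places.

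**Figure D4:**
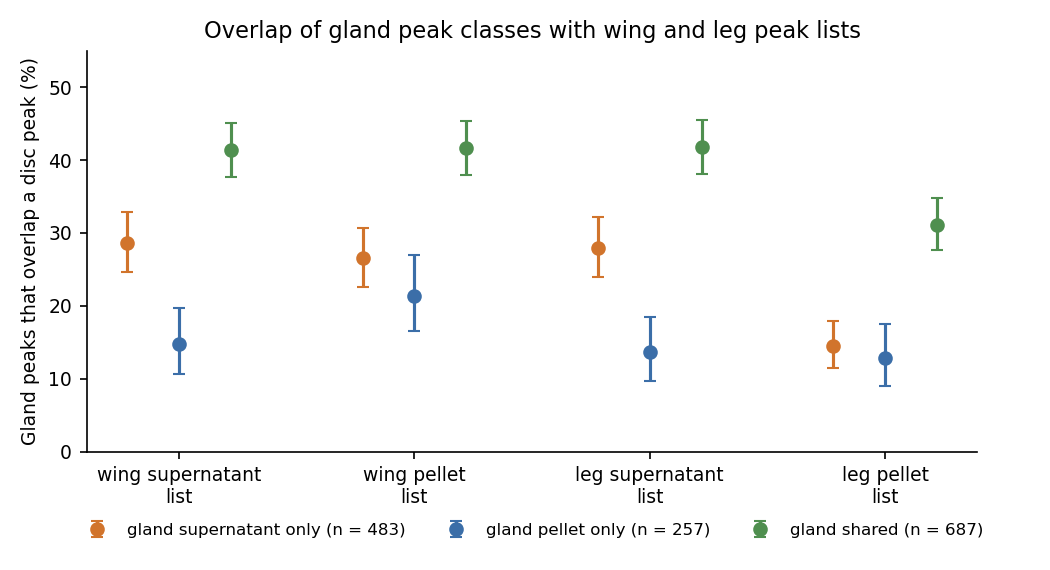
Percentage of gland peaks (y axis) that overlap a peak of the wing or leg supernatant or pellet list (x axis) by class, with exact 95% intervals for counting error. Shared peaks are highest in all 4 lists, and supernatant-only peaks stand above pellet-only peaks for the wing supernatant list, at 28.6% against 14.8%, and the leg supernatant list, at 28.0% against 13.6%.

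In the authors' deposited tables of wing against gland and leg against gland, sites of all 3 classes had mostly lower values in the discs. The deposited log2 fold change runs disc over gland, so a negative value means more reads in the gland, and a site was called at an adjusted p under 0.05. Over all sites tested in the authors' deposited table, 26.4% were higher in the gland and 28.7% higher in the wing, and for the leg 22.7% were higher in the gland and 29.6% higher in the leg. By class, the authors' deposited table put 234 of 472 supernatant-only sites (49.6%), 160 of 254 pellet-only sites (63.0%) and 499 of 655 shared sites (76.2%) higher in the gland than in the wing. At an adjusted p under 0.01 these counts in the authors' deposited table were 162, 119 and 473. For the leg the authors' deposited table had 165 (35.0%), 114 (44.9%) and 503 (76.8%) higher in the gland, and at an adjusted p under 0.01 the supernatant-only count was 75 and the pellet-only count 68. The median log2 fold change in the authors' deposited table, wing over gland, was -1.41 for supernatant-only, -1.77 for pellet-only and -2.30 for shared sites, and leg over gland it was -1.12, -1.35 and -1.92. Sites with no gland peak had medians of 1.14 and 1.29 in the authors' deposited tables. The gland peaks may rest on the same gland libraries as these tables, so the percentages describe the classes and are no test of them. Sites without a gland peak were grouped by the same peak calls, so their medians above 0 are no test either. The labels do not tell whether replicates came from separate animals, so the authors' adjusted p may measure technical spread.

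The reads behind these sites also differed. In the authors' deposited tables the mean normalised read count per site had a median of 8.01 at supernatant-only, 7.61 at pellet-only and 23.1 at shared sites. Its part in how many sites were called in each class was not tested.

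**Figure D5:**
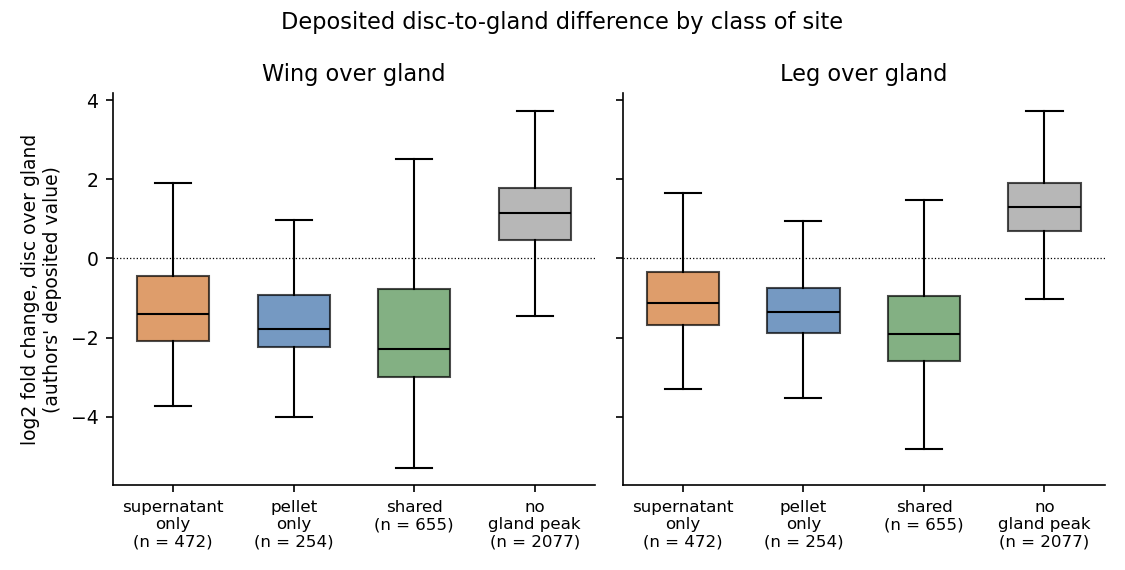
The authors' deposited log2 fold change (y axis), wing over gland on the left and leg over gland on the right, for sites by gland peak class; boxes are quartiles with the median, and whiskers reach the last value within 1.5 box heights. All 3 classes with a gland peak have medians below 0, such as -2.30 for shared sites against the wing, and sites without one lie above it at 1.14. The groups were formed by gland peak calls, so this contrast is a description.

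Single sites showed both directions within each class. At EcR all 7 sites in the authors' deposited table for the wing were called higher in the gland, with log2 fold changes of -4.50 to -1.30. At Eip75B 26 of 45 sites in the authors' deposited table for the wing were called higher in the gland and 9 higher in the wing. The supernatant-only peak of Eip75B from 17992011 to 17992097 was among those higher in the wing, at 2.54 in the authors' deposited table with an adjusted p of 9.73e-10, and a shared peak from 18023657 to 18023981 was at -3.98. Both sites at Blimp-1, a repressor gene of the prepupal timer, were higher in the wing, at 1.33 and 1.76 in the authors' deposited table. Of the strongest pellet-only peaks, the one at ClpX was at -4.02 (adjusted p = 6.32e-10) and the wide one at nAChRalpha3 at 1.08 (adjusted p = 0.00186), both wing over gland from the authors' deposited table. In the 2R cluster the authors' deposited log2 fold changes were -4.82 and -5.14, wing over gland, at the sites of the strongest peaks, and -5.15 and -4.83, leg over gland.

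On chromosome M the lists differed in how the same stretch was divided. The supernatant list held 1 peak from 1 to 15761 with a fold enrichment of 157, its summit in COX1, the gene of a cytochrome c oxidase subunit, and 3 smaller ones with folds of 17.8, 17.2 and 12.7. In the pellet list a peak from 1 to 14951 had a fold of 61.8 and its summit in COX3, another subunit gene of that oxidase, and 7 smaller peaks had 6.00 to 25.9. Both large peaks covered all 37 mitochondrial genes, the last of which ends at 14916. Covered length was 16841 bp in the supernatant and 16491 bp in the pellet. All 4 supernatant peaks and 7 of the 8 pellet peaks were shared, and the exception was the weakest, from 19032 to 19123. The pellet lists of wing and leg held 0 peaks on chromosome M, and their supernatant lists 14 in wing and 20 in leg. At the largest site the log2 fold change in the authors' deposited table was -5.81, wing over gland, and -5.44, leg over gland. What part of these reads is bound EcR and what part is free mitochondrial DNA was not tested.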

How the data were processed

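EcR was profiled by anti-Flag CUT&RUN in supernatant and pellet fractions of salivary glands, wings and legs, with 2 libraries per tissue and fraction. The submitters' processing notes name, without settings, MACS2 2.1.2, DESeq2, R 3.5.2, bedtools 2.26, Picard 2.2.4, SAMtools 1.9 and Bowtie2 2.3.4.1. Names of the deposited files say that replicates were merged and fragments of 20 to 120 bp kept. Peaks carry the authors' fold enrichment, which is a linear ratio, their q-value as its −log10, and their summit offset (other: bp from the peak's start). Both deposited tables used give, for every site, the authors' log2 fold change and standard error, their adjusted p-value, and a signal, the mean of normalised reads over libraries. The sources used here do not say which libraries were fitted.

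Peaks were classed by overlap of at least 1 bp. Summits were placed on spans of a RefSeq gene table of the same assembly (Release 6), which holds no strand, exons or introns. "Near the centromere" means the last or first 1.5 Mb of arm 2L, 5.5 Mb of 2R, 5.0 Mb of 3L, 4.0 Mb of 3R and 1.0 Mb of X, next to the centromere, rounded windows set by hand. Place (9 tests) and overlap with disc lists (12 tests) were compared by Fisher's exact test, two-sided, with Benjamini-Hochberg adjustment within each family, in scipy 1.17.1. The tests treat peaks as independent. They were checked on simulated counts that were also independent, which cannot show how dependence between neighbouring peaks affects the p-values. Coordinates are 1-based. Named peaks were the 10 of highest fold enrichment per class, 1 per gene, with the coding gene at the summit or within 5000 bp, genes of the lists within 2000 bp, every chromosome M peak, the shared pairs with the smallest overlap and the pairs of unshared peaks with the smallest gap; 1 supernatant-only peak of the 10 is not reported here. Counts of peaks per gene, the site examples at Eip75B, and the genes tara and atos were chosen after their values were seen. Of the names in the 16 gene lists, torso, pasilla, pola, Dl, argos and bent were not matched and have no value. The members and lists were chosen with earlier results of these data known. The table of wing against leg was not used, and motifs were not searched because no genome sequence was used here.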

Additional observations from a re-analysis of the deposited data

How the results depend on the processing

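Over 41 results, 117 of 156 alternative values were labelled unchanged. For differences between classes this meant the same direction and side of the threshold, and for shared percentages a move of less than the interval. Counts and medians from the authors' deposited tables were labelled by other limits. Sites higher in gland than in wing kept the label at an adjusted p under 0.01, although supernatant-only sites fell from 234 to 162 and pellet-only sites from 160 to 119. Differences in place that changed sign were past the threshold in neither setting. Inside gene spans, supernatant only minus shared was 0.0054 points where unshared peaks had no neighbour within 500 bp. Near gene ends, supernatant only minus pellet only was 0.086 in that setting, 11.0 at a −log10 q of 10 or more and 0.81 within 250 bp; pellet only minus shared was -0.24 at that q and -1.29 within 250 bp; and supernatant only minus shared was -0.66 without sequence near centromeres, -0.48 within 250 bp, -0.11 with equally large classes and -0.23 without the 2R cluster. The shared percentage of supernatant peaks was 53.7 with summits within 100 bp, 62.9 with peaks within 500 bp, 65.2 at a −log10 q of 10 or more and 68.6 with equally long lists; for pellet peaks it was 67.7, 75.9 and, with equally long lists, 67.5. Near centromeres, supernatant only minus shared lost its call at -1.99 points where unshared peaks had no neighbour within 500 bp, -3.06 at the stricter q, -1.11 with pellet summits and -2.13 with equally large classes. Without X near its centromere the 3 differences were -2.23 (supernatant only minus pellet only), -1.58 (supernatant only minus shared) and 0.66 (pellet only minus shared), and without the 2R cluster supernatant only minus shared was -0.063. At the stricter q the share near gene ends gained a call at 10.8 points, and overlap with the wing and leg supernatant lists, supernatant only minus shared, lost it at -10.5 (adjusted p = 0.0519) and -8.70 (0.0939). Supernatant only minus pellet only gained a call without sequence near centromeres at 11.0 (wing pellet list) and 7.47 (leg pellet list), and with equally large classes at 8.17 (wing pellet list). In the authors' deposited tables at an adjusted p under 0.01, 9 pellet-only sites were higher in wing, 75 supernatant-only and 68 pellet-only sites higher in gland than in leg, and 12 pellet-only sites higher in leg. With the median of all sites subtracted, the deposited medians were -2.77 for shared sites in wing, and -1.76, -1.98 and -2.56 for supernatant-only, pellet-only and shared sites in leg. The causes were not tested beyond what each alternative leaves out. Equally large classes and the omission of X or of the 2R cluster were chosen after seeing the data. No paired analysis was possible because each list and table merges the replicates, and no replicate could be left out for the same reason. The motif search was not run. Depth per library is unknown, so whether a peak absent from a list was unbound or missed was not tested.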
